A study of Mus musculus with 6 samples.

Results

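The circadian clock of a cell is a feedback loop of transcription. The activators Arntl (also called BMAL1), Clock and its paralog Npas2 pair on E-box DNA and drive the Per and Cry genes, whose proteins return to the nucleus and stop the activators. In a further loop the same activators drive the nuclear receptors Nr1d1 and Nr1d2 (REV-ERB alpha and beta), which repress Arntl and Npas2, and an output arm runs through Dbp, a transcription factor of the PAR bZIP family that binds D-boxes. White fat has such a clock of its own, and over the day its Arntl transcript and the Dbp, Per and Nr1d transcripts peak in opposite parts of the cycle.

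The genes described here are 10 clock genes chosen by name: Arntl, Clock, Npas2, Per1, Per2, Per3, Cry1, Nr1d1, Nr1d2 and Dbp. By the platform annotation they are read by 24 of the 45101 probe sets on the array, and for each gene the brightest of its probe sets by mean was used. The array names 18193 genes in this way. Of the 10 clock genes, 9 passed the filter on low signal (a mean of 5.22 on the log2 scale), while Npas2 lay just below it at 5.20. Npas2 is therefore described, and was tested only without a filter or under a lower filter at 4.88. The filter left 12513 tested genes in all.

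The samples were epididymal (gonadal, visceral) white fat of male C57BL/6 mice aged 16 weeks, on chow and fed freely when the tissue was taken. Control mice were FTO flox/flox, with loxP-flanked copies of the gene for the RNA demethylase FTO and no Cre. AFO mice were Adiponectin-cre FTO flox/flox, so that both groups carried the floxed alleles and only the AFO mice carried Cre under adiponectin control, a promoter of mature fat cells. Each genotype had 3 arrays, numbered 1 to 3, and each array held RNA of its own pool, with the number of mice in a pool and the hour of harvest not given in the sources used here. Whole tissue was measured, so fewer cells of a type and less RNA per cell cannot be told apart.

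Values are log2 levels after RMA, with array medians from 5.35 to 5.43. Fto itself read 6.11, 6.20 and 5.59 in control and 6.13, 5.45 and 5.95 in AFO fat, which overlap, so its level does not check the genotype. The 6 adipocyte markers on the array averaged 11.3 to 11.8 on every array. Pool 2 stood apart in both genotypes in other cell types. Its arrays averaged 8.95 (control) and 9.61 (AFO) over 4 B cell markers against 5.32 to 6.07 elsewhere, and 5.36 and 4.44 over 5 mesothelial markers against 8.13 to 8.27. The 6 skeletal muscle markers averaged 9.69 in control pool 2, 12.1 in AFO pool 2 and 9.75 in AFO pool 1, against 4.99 to 5.47 on the other arrays. Epididymis markers (4 genes) averaged 7.75 in AFO pool 1 and 4.36 to 4.68 elsewhere. Epithelial markers (5 genes) averaged 8.09 and 7.75 in AFO pools 1 and 3 and 5.05 to 6.56 elsewhere. T cell markers and lymph node vessel markers were also highest in pool 2 (7.50 and 7.59, and 7.62 and 7.76). The part of other cells in the clock values below was not tested.

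Promoter sequence is shown for the members in which the letters of a clock element were found, since the activators act through E-boxes (CACGTG), the Dbp family through D-boxes (TTATGNAA) and Nr1d1 and Nr1d2 through the element that they share with ROR receptors (RORE, searched as TAGGTCA). RefSeq promoters (GRCm38.p6, from 250 bases before to 50 after each start) were searched on both strands for 9 of the 10 genes (all but Per2), over 13 starts. The E-box stood in 2 of the 9 genes (7.15% of all 32851 promoters of this length hold it), the D-box in 2 (3.38%) and the RORE letters in 1 (2.61%). The members are counted by gene, over any of their starts, and the percentages by single promoter, so they are not in like units. Each line reads 5′ to 3′ on the gene's strand, with the matched letters in capitals.

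Per1 E-box, at base -166 from the start, chr11:69098757-69098814, plus strand: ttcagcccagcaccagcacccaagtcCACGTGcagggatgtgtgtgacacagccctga

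Per1 D-box, at base -24 from the start, chr11:69098899-69098948, plus strand: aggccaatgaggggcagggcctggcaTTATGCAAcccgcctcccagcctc

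Cry1 E-box, at base -60 from the start, chr10:85185083-85185140, minus strand: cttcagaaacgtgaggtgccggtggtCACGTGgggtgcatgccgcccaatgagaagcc

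Per3 D-box, at base -205 from the start, chr4:151044837-151044896, minus strand: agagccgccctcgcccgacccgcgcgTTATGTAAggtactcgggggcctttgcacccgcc

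Per3 D-box, at base -158 from the start, chr4:151044790-151044849, minus strand: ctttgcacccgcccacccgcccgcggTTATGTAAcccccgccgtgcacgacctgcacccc

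Arntl RORE letters, from base 31 of the transcript at 1 of its 2 listed starts, chr7:113207530-113207559, plus strand: aaggcagaaagTAGGTCAgggacggaggtg

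These matches describe letters only, and no binding was measured here. For the other members searched, the letters are not in this window, which says nothing of elements farther away.

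The clock genes differed far more between pool numbers than between genotypes. Of the 10 genes, 9 ranged over at least 1 log2 unit across the 6 arrays, against 18.6% of all tested genes, and the exception was Cry1 with 0.59. Over the 9 tested members the median range was 1.51, against 0.57 over all tested genes. When the sum of squares of each gene was divided between pool number and genotype, pool number held from 60.1% (Per2) to 98.6% (Dbp), with a median of 92.2% over the 10 genes, and genotype held 0.011% to 8.45%. Over all tested genes the median shares were 69.5% for pool number and 5.26% for genotype. Pool number is not a condition of the study, so its differences are described without a test.

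**Figure D1:**
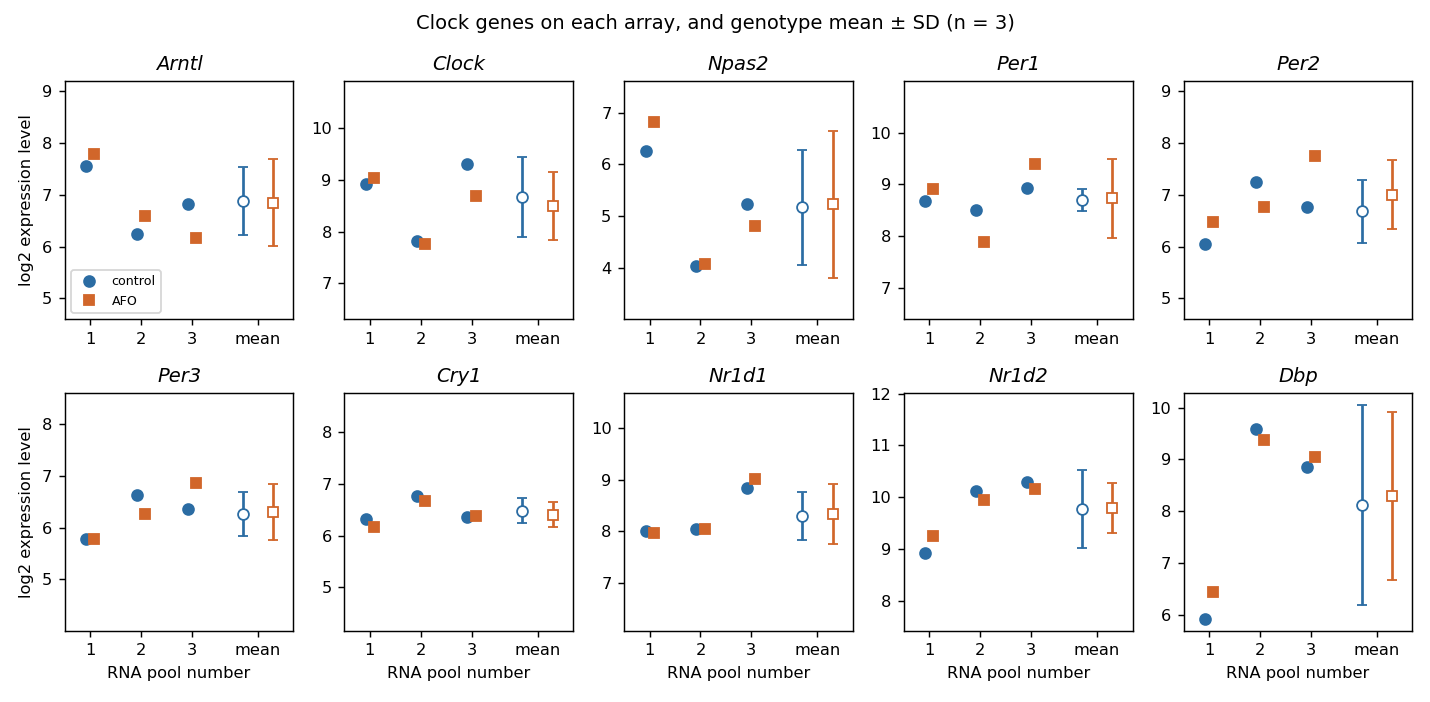
Log2 level of the 10 clock genes on each array (filled points, by RNA pool number on the horizontal axis; circles control, squares AFO), with the genotype mean ± SD of 3 pools as open points; every panel spans the same number of log2 units. Points of equal pool number lie close together for most genes, as in Dbp, where pool 1 is low in both genotypes, and the genotype means nearly coincide.

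Among the activators, Arntl read 7.56, 6.24 and 6.83 in control pools 1, 2 and 3 and 7.78, 6.60 and 6.17 in AFO pools 1, 2 and 3. Pool 1 was the highest in each genotype, and pools 2 and 3 changed places between genotypes. A further Arntl probe set, below the filter at a mean of 5.21, did not follow this order, with pool 3 minus pool 1 at -0.49 in control and 0.17 in AFO fat. Npas2, which can stand in for Clock as the partner of Arntl, read 6.25, 4.03 and 5.23 in control and 6.81, 4.07 and 4.81 in AFO fat. Its order of pools was the same in both genotypes, from pool 1 down through pool 3 to pool 2, although its low level limits how far it can be read. Its other probe set, also below the filter, was highest in pool 1 too, with pool 3 minus pool 1 at -0.34 in control and -0.45 in AFO fat. Clock, the partner with histone acetyltransferase activity, read 8.92, 7.81 and 9.30 in control and 9.04, 7.77 and 8.70 in AFO fat. It was lowest in pool 2 in both genotypes and on this probe set did not separate pool 1 from pool 3, where its mean difference of 0.019 turned to -0.016 after a further quantile normalization. On both other Clock probe sets that passed the filter, pool 1 was the highest in each genotype, with mean differences of -0.33 and -0.15 between pools 3 and 1. All 3 further Clock probe sets were also lower in pool 2 than the mean of pools 1 and 3, at -0.81, -1.11 and -0.54 log2 units, the last of them below the filter.

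Dbp, the output factor, had the widest range of the 10 genes. It read 5.92, 9.59 and 8.85 in control pools 1, 2 and 3 and 6.44, 9.38 and 9.06 in AFO pools 1, 2 and 3. Both pool 1 arrays were low and the other 4 were high, in the same order in each genotype. Pool 3 exceeded pool 1 by 2.93 log2 units (7.64-fold) in control and by 2.62 (6.14-fold) in AFO fat. In each genotype taken alone, this was the highest pool 3 minus pool 1 value of all 12513 tested genes. The other Dbp probe set, which is not of the _s_at kind that can read related transcripts, gave 2.14 and 2.06. Only 9 tested genes (0.0719%) stood at least 1 log2 unit higher in pool 3 than in pool 1 in both genotypes, and Dbp was the only one of the 9 tested members among them. In the other direction 13 genes (0.104%) passed the same rule, none of them a tested member, and Npas2, below the filter, met it with -1.02 in control and -2.0 in AFO fat.

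Of the REV-ERB genes, Nr1d2 was low in pool 1 and Nr1d1 was high in pool 3. Nr1d2 read 8.91, 10.12 and 10.29 in control and 9.24, 9.96 and 10.16 in AFO fat, so that pool 1 was lowest in each genotype and pools 2 and 3 lay close together. Nr1d1 read 8.01, 8.05 and 8.84 in control and 7.96, 8.04 and 9.01 in AFO fat. Unlike Nr1d2 and Dbp, Nr1d1 was high in pool 3 alone, and its pool 1 and pool 2 arrays all lay between 7.96 and 8.05. Nr1d1 had the second smallest share of its spread left after pool and genotype (1.25%, against 1.03% for Dbp). The other Nr1d2 probe set gave a pool 3 minus pool 1 difference of 1.80 in control and 0.27 in AFO fat, where the one used gave 1.38 and 0.92.

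The Per genes and Cry1 encode the repressors that close the loop. Per2 read 6.04, 7.25 and 6.76 in control and 6.49, 6.77 and 7.76 in AFO fat. Per3 read 5.79, 6.62 and 6.36 in control and 5.78, 6.26 and 6.86 in AFO fat. In both genes pool 1 was lowest in each genotype, the top place on the probe sets used went to pool 2 in control and to pool 3 in AFO fat, and 1 further Per2 and 2 further Per3 probe sets passed the filter. Both further Per3 sets had pool 3 on top in control too, at 5.53, 6.10 and 6.52, and at 5.05, 5.28 and 5.69, in pools 1, 2 and 3. These Per3 sets gave pool 3 minus pool 1 values of 0.99 and 0.65 in control and 0.95 and 1.21 in AFO fat, and the Per2 set gave 0.29 and 0.15. Per1, which also answers to glucocorticoid and cAMP signals, read 8.68, 8.51 and 8.93 in control and 8.90, 7.89 and 9.40 in AFO fat. Its pools stood in the same order in each genotype, with pool 2 lowest and pool 3 highest. Cry1, the most even of the 10 genes, read 6.32, 6.77 and 6.36 in control and 6.17, 6.66 and 6.38 in AFO fat, highest in pool 2 in each.

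Counted over the members, 6 of the 9 tested genes (Per2, Per3, Cry1, Nr1d1, Nr1d2 and Dbp) had both pool 1 arrays below the other 4, against 6.31% of all tested genes. For Nr1d1 this was by a narrow margin, with pool 2 minus pool 1 at 0.040 in control and 0.081 in AFO fat. Arntl alone of the tested members had both pool 1 arrays above the other 4 (10.7% of all tested genes), and Npas2, untested, did too. Pool 2 stood below the other 4 arrays for Clock and Per1 among the tested members and for Npas2, where 32.6% of all tested genes did so, and above them for Cry1 and Dbp, where 17% of all did. The pool 2 counts, and the count with pool 1 above, are thus near their background shares. The count of driven genes with pool 1 below is above its share. The members belong to 1 feedback loop and were chosen with earlier results known, so they are not independent draws and no test was made. The other Per2, Per3 and Dbp probe sets that passed the filter also had both pool 1 arrays lowest, and the other Nr1d2 set did not. Between pools 1 and 3 the B cell, T cell, mesothelial, macrophage and endothelial marker means differed by -0.39, -0.15, 0.014, 0.088 and -0.10, the adipocyte mean by -0.35, the epithelial mean by -0.40 and the lymph node vessel mean by -0.34 (pool 3 minus pool 1, mean of both genotypes). The median adipocyte gene differed by -0.15. Lep fell far more than the other adipocyte markers, from 8.40 in pool 1 to 6.51 in pool 3 in control and from 8.06 to 6.57 in AFO fat. The sign changed between control and AFO fat for the lymph node vessel mean of 2 genes (0.062 and -0.74), the macrophage mean (0.26 and -0.083) and the endothelial mean (0.030 and -0.23). The skeletal muscle mean differed by -0.48 in control and -4.59 in AFO fat, and the epididymis mean by -0.016 in control and -3.22 in AFO fat. The direction of the members' pool differences was the same after median centring and after a further quantile normalization in all but 2 of 57 comparisons, the Clock value above and Nr1d1 between pools 2 and 1 (0.060, and -0.0027 after median centring). This is a weak check, since RMA values are already quantile normalized. The largest shift was 0.17, so only differences near 0 could turn.

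Ranked among the 12513 tested genes by the mean of both genotypes, pool 3 minus pool 1 placed Dbp at rank 1 from the top, Nr1d2 at 11, Per2 at 18, Nr1d1 at 25 and Per3 at 45, and Arntl at rank 44 from the bottom. The mean differences were 2.78, 1.15, 1.00, 0.93, 0.83 and -1.17. Per1 stood at rank 582 with 0.37, Cry1 at 3508 with 0.12 and Clock at 5751. These ranks describe 4 arrays. They moved between genotypes. Clock was at rank 1121 from the top in control and 1971 from the bottom in AFO fat, Per1 at 2424 and 534 from the top, and Cry1 at 6363 and 2474. Per3 was at rank 305 in control and 28 in AFO fat, Per2 at 135 and 14, Nr1d2 at 13 and 64, Nr1d1 at 81 and 34, and Arntl at 110 and 42 from the bottom.

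**Figure D2:**
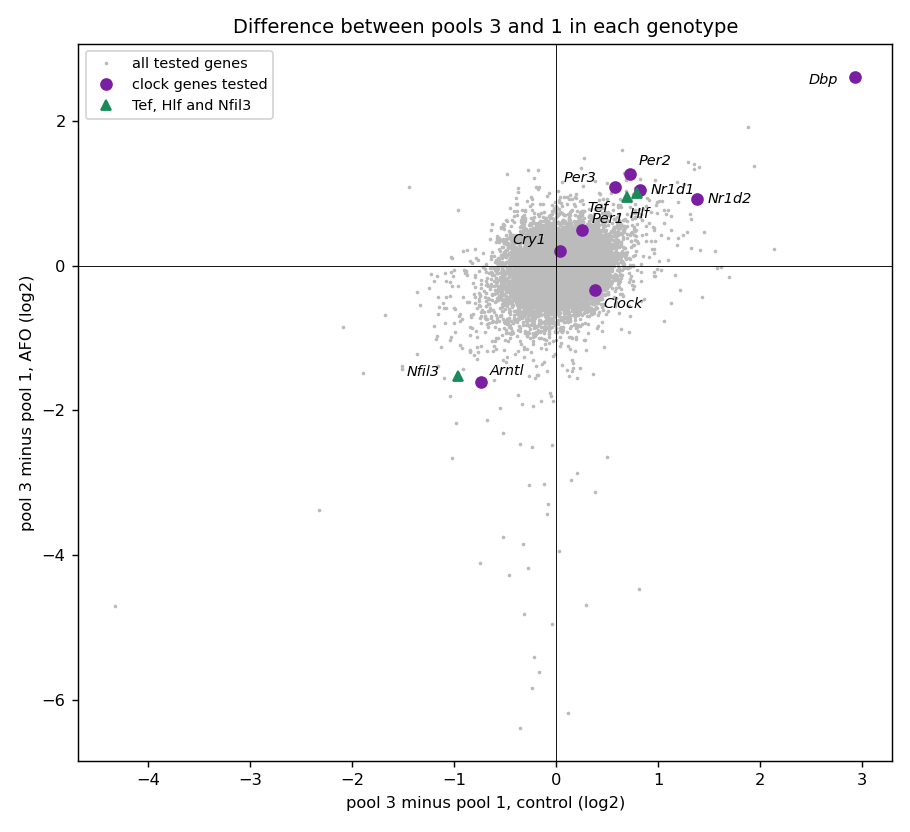
Difference between pools 3 and 1 on the log2 scale, control on the horizontal and AFO on the vertical axis, for all 12513 tested genes (grey), the 9 tested clock genes (circles) and the bZIP genes Tef, Hlf and Nfil3 (triangles). Dbp lies alone at the upper right, the Nr1d, Per2 and Per3 genes lie above 0 on both axes, and Arntl and Nfil3 lie below 0 on both.

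The relation between both limbs of the loop was read from each array. For every gene its mean over the 6 arrays was subtracted, and the deviations were averaged over the activators (Arntl, Clock, Npas2) and over the 7 genes they drive (Per1, Per2, Per3, Cry1, Nr1d1, Nr1d2, Dbp). In control pools 1, 2 and 3 the activators stood at 0.70, -0.85 and 0.23 and the driven genes at -0.70, 0.33 and 0.26. In AFO pools 1, 2 and 3 they stood at 0.99, -0.74 and -0.33, and at -0.52, 0.053 and 0.58. The limbs thus had opposite signs on 5 of the 6 arrays, and control pool 3 had both above 0. Both pool 2 arrays are among these 5. There Clock and Npas2 lay below the other 4 arrays, as did 32.6% of all tested genes. In AFO pool 2 the sign of the driven genes rested on Dbp, the gene with the widest range, and without Dbp their mean there was -0.13, the sign of the activators. On the other 5 arrays the driven mean kept its sign without Dbp, at -0.44, 0.16 and 0.19 in control pools 1, 2 and 3 and -0.31 and 0.53 in AFO pools 1 and 3. Activators minus driven genes gave 1.4, -1.19 and -0.023 in control and 1.51, -0.79 and -0.90 in AFO fat. Pool 1 was positive in both genotypes and pool 2 negative in both, and the genotype means of 0.063 ± 1.29 and -0.063 ± 1.36 (SD, n = 3) lay far within their spread. With Arntl alone as the activator limb the 6 values kept their signs, at 1.4, -0.95 and -0.29 in control and 1.43, -0.32 and -1.27 in AFO fat.

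**Figure D3:**
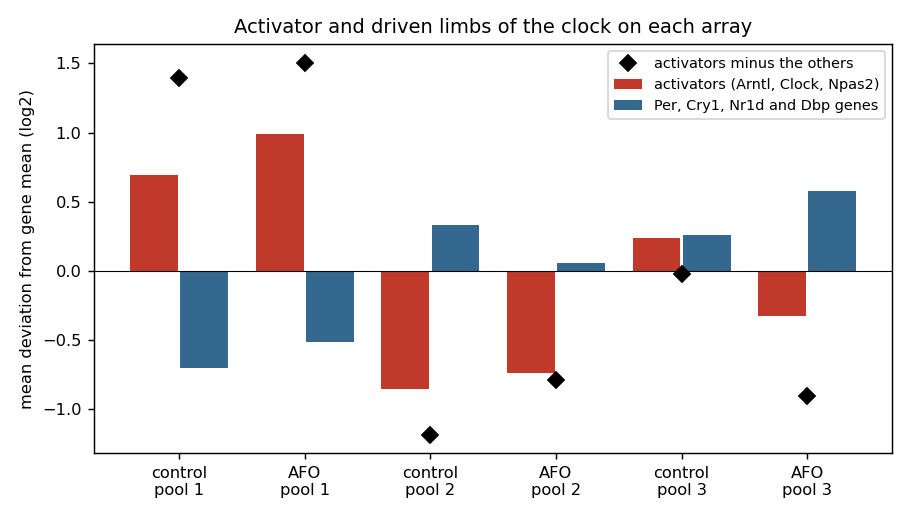
Mean deviation on the log2 scale from each gene's own mean over the 6 arrays, for the activators (red bars), the genes they drive (blue bars) and the difference of both (diamonds), on each array. The bars point in opposite directions on every array but control pool 3, in AFO pool 2 through Dbp alone, and pool 1 has the positive differences, 1.4 in control and 1.51 in AFO fat.

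Genes with profiles like or opposite to those of Arntl and Dbp were sought among all tested genes, by the root mean square difference of centred log2 profiles over the 6 arrays, which are few and share pool structure. Of 12512 genes, the nearest to Arntl was Nfil3 (difference 0.19), a bZIP repressor that binds the same D-boxes as Dbp, followed by Stx6, a syntaxin of membrane traffic (0.25), and the transcription factor Creb3l1 (0.26). Nfil3 read 6.38, 5.07 and 5.41 in control and 6.54, 4.91 and 5.01 in AFO fat. The profiles most opposite to Arntl were those of Tef (0.23), a PAR bZIP factor like Dbp, Per3 (0.25) and Per2 (0.30), and ranks 4 and 5 went to Nr1d2 (0.31) and Hlf (0.32), the remaining PAR bZIP factor. All of the 5 most opposite profiles were therefore clock genes of these lists. The lists were chosen with earlier results of these data known, so these ranks are description and not independent support. Cry1 stood at rank 423 and Nr1d1 at 1274 of the opposite profiles, Dbp, whose range is wider than that of Arntl, at 11444, and Per1 at 9584. Clock was at rank 3144 of the like profiles.

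For Dbp the nearest profiles were those of Cd209b, a lectin of marginal zone and sinus macrophages (0.89), Rgs1, a regulator of G protein signalling in lymphocytes (0.94), and Pik3ip1, an inhibitor of PI3 kinase (0.96), and Nr1d2 stood at rank 5 (0.99), Tef at 23, Per2 at 47, Per3 at 79 and Hlf at 94. The most opposite were Mest, an imprinted gene of fat expansion (0.62), Nnat, an imprinted gene for neuronatin (0.66), and Thbs1, which encodes thrombospondin (0.73), with Nfil3 at rank 11 (0.84) and Arntl at rank 21 (0.92). Of the other members, Cry1 stood at rank 751, Nr1d1 at 1050 and Per1 at 10026 of the profiles like Dbp, and Clock at 563 of the opposite profiles. Dbp is high in pool 2, which also had the high lymphocyte markers, so these distances follow both patterns. Mest read 9.21, 6.93 and 7.69 in control and 9.11, 6.13 and 7.68 in AFO fat, high where Dbp was low. No correlation over the 6 arrays is given, since pool 2 stands apart.

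AFO and control fat were compared to ask whether loss of Fto in fat cells goes with other levels of the clock genes. None of the 9 tested members differed between genotypes beyond the spread of the pools. With limma without pairing, 0 of 12513 genes (0%) had an adjusted p under 0.05 and 120 had an unadjusted p under 0.05, none of them a member. With pool number as a block 2 genes (0.016%) passed, neither a member, and 531 had an unadjusted p under 0.05, again with 0 members. The median difference of the 9 members was 0.027, with 6 higher and 3 lower in AFO fat, beside -0.015 over all tested genes, of which 5683 were higher and 6830 lower. In 0 of the 9 members were the 3 AFO values all outside the 3 control values, against 3.43% of all tested genes.

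Among the activators, Arntl had a mean of 6.88 ± 0.66 in control and 6.85 ± 0.83 in AFO fat (SD, n = 3). The difference was -0.030 (SE 0.49). Clock differed by -0.18 (SE 0.47), from 8.68 ± 0.77 to 8.50 ± 0.65. Npas2, below the filter, read 5.17 ± 1.11 and 5.23 ± 1.42, and differed by 0.058 when all genes were tested without a filter. In the output arm, Dbp had means of 8.12 ± 1.94 and 8.29 ± 1.61, a difference of 0.17 (SE 1.15) with a 95% interval from -2.58 to 2.93. That interval is wide because pool 1 is so far from pools 2 and 3. With pool number as a block the standard error fell to 0.16 and the interval to -0.21 to 0.55 (limma, adjusted p = 0.99). Nr1d1 differed by 0.037 (block 95% interval -0.22 to 0.29) and Nr1d2 by 0.011 (-0.30 to 0.33).

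Of the repressors, Per2 had the largest difference, 0.32, between 6.69 ± 0.61 in control and 7.0 ± 0.67 in AFO fat, with a 95% interval from -0.70 to 1.33, or from -0.35 to 0.98 with the block. Per1 differed by 0.027 (block 95% interval -0.49 to 0.55), Per3 by 0.041 (-0.41 to 0.49) and Cry1 by -0.077 (-0.36 to 0.20). The adjusted p of each member was 1 without and at least 0.99 with the block in the limma fits. Half-widths of the block intervals ran from 0.26 for Nr1d1 to 0.66 for Per2 on the log2 scale with 3 arrays a group, before any adjustment over genes. When both pool 2 arrays were left out and pool number was a block, Per2 passed narrowly (0.72, SE 0.18, limma adjusted p = 0.0493), where 1.85% of all genes passed. This fit rests on 2 arrays a genotype, and within pool 2, which it leaves out, Per2 was lower in AFO fat. The Per2 probe set not used that passed the filter differed by -0.12 over the 6 arrays.

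Within pool numbers the genotype differences of the members did not share a direction. In pool 3 all 3 activators were lower in AFO than in control fat (Arntl by -0.66, Clock by -0.60, Npas2 by -0.42) and 6 of the 7 driven genes were higher, led by Per2 at 1.00, Per3 at 0.50 and Per1 at 0.47. The Per2 and Per3 values were not shared by the other probe sets that passed the filter, which gave -0.028 for Per2 and -0.25 and -0.041 for Per3 in pool 3. The other Arntl set, below the filter, was higher in AFO fat there, by 0.40. The other Clock, Npas2 and Dbp sets kept the direction of those used. Cry1 was higher by only 0.021. Nr1d2, the driven gene that was lower in pool 3, gave -0.13, and -0.91 on its other set. In pool 2 all 7 driven genes were lower in AFO fat, among them Per1 at -0.61, Per2 at -0.49 and Per3 at -0.37, while Arntl was higher by 0.35. The Nr1d1 value there was only -0.0099. On the other Nr1d2 probe set AFO fat was higher in pool 2, by 0.10. The other Per2, Per3 and Dbp sets that passed the filter were lower there too. In pool 1 all 3 activators were higher in AFO fat (Npas2 by 0.56, Arntl by 0.22 and Clock by 0.11), and 4 of the 7 driven genes were too, with Dbp at 0.52 and Per2 at 0.44. The direction of the activators there was not shared by their other probe sets, all of which were lower in AFO fat. The Clock sets that passed the filter gave -0.074 and -0.022. Below the filter, Clock gave -0.44, Arntl -0.26 and Npas2 -0.038. The difference of activators minus driven genes between AFO and control was 0.11 in pool 1, 0.39 in pool 2 and -0.88 in pool 3. With 1 array per genotype in each pool these values have no replicate check. The median size of the members' differences was 0.22, 0.18 and 0.45 in pools 1, 2 and 3, against 0.12, 0.14 and 0.20 over all tested genes.

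**Figure D4:**
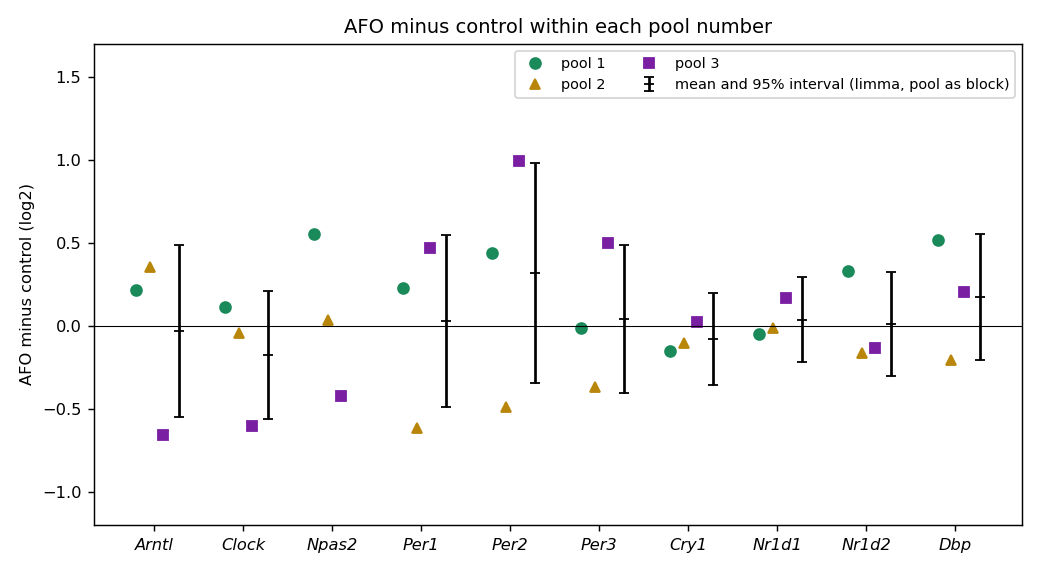
AFO minus control on the log2 scale within pool 1 (circles), pool 2 (triangles) and pool 3 (squares) for each clock gene, with the limma mean and 95% interval with pool number as a block (black; not given for Npas2, which lay below the filter). Every interval includes 0, and Per1, Per2 and Per3 are above 0 in pool 3 and below 0 in pool 2.

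Other genes of the clock were read from 4 lists. Of their 33 genes, 28 were tested, 3 had a signal under the filter while 2 are not analysed here, and 0 of the 28 passed the limma test with or without the block. The PAR bZIP factors Tef and Hlf shared the low pool 1 of Dbp, but not its order of pools 2 and 3 throughout. Tef read 8.42, 9.32 and 9.12 in control and 8.38, 9.21 and 9.33 in AFO fat, and Hlf read 6.15, 6.90 and 6.95 in control and 6.33, 6.72 and 7.35 in AFO fat. Both were lowest in pool 1 in each genotype, Hlf was highest in pool 3 in each, and Tef was highest in pool 2 in control and in pool 3 in AFO fat. Their genotype differences were 0.015 (SE 0.33) and 0.13 (SE 0.33), and that of Nfil3 was -0.13 (SE 0.53).

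Of 7 tested further loop factors, 6 were higher in AFO fat, with a median of 0.12. Rora, an activator at the RORE, differed by 0.18 (SE 0.24), Bhlhe40, a repressor at E-boxes, by 0.26 (SE 0.25), and Timeless by -0.051 (SE 0.30). Of 8 genes that act on the turnover of clock proteins, 5 were higher in AFO fat, with a median of 0.060. Usp2, a deubiquitinase whose transcript follows the clock, read 7.21, 7.99 and 7.36 in control and 7.80, 8.24 and 8.06 in AFO fat, higher in AFO fat within each pool (0.51, SE 0.24 without and 0.13 with the block). Prkaa2, a catalytic subunit of AMP kinase, differed by 0.50 (SE 0.28). It read 7.93 in AFO pool 2 against 6.66 to 7.02 on the other arrays, and in pool 3 it was not higher in AFO fat. Neither passed the limma test, with an adjusted p of 1 without and 0.99 with the block. Of 10 other outputs 3 were higher, with a median of -0.034, and among them Noct, a circadian phosphatase of dinucleotide cofactors, differed by -0.20 (SE 0.39), Wee1, a cell cycle kinase, by -0.11 (SE 0.18), Alas1, an enzyme of heme synthesis, by -0.078 (SE 0.13) and Cys1 by 0.067 (SE 0.58). Nampt, the NAD salvage enzyme driven by the activators, was chosen after its values were seen. It read 8.80, 9.31 and 9.40 in control and 8.84, 9.33 and 9.52 in AFO fat, low in pool 1 in both genotypes, with 98.0% of its sum of squares held by pool number.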

How the data were processed

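Total RNA of 6 pools was hybridised to Affymetrix 3′ expression arrays. The deposited values are log2 levels made by the authors with RMA in Affymetrix Expression Console 1.4, per the submitters' processing notes. RMA includes quantile normalization, which hides a change shared by most genes and can understate differences of dim genes. The genome build behind the probe sets is not given in the sources used here.

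Of 45101 probe sets, 64 were controls, 34945 had 1 gene symbol, 932 several and 9160 were not listed. Those with 1 symbol and a mean at or above their 40th percentile (5.22) were kept (20967), and each gene was read from its highest probe set, giving 12513 genes. All 10 members matched RefSeq gene IDs. Genotypes were tested with limma 3.58.1 under R 4.3.3 (empirical Bayes with trend, two-sided, Benjamini-Hochberg over all genes, called under 0.05). P-values without the block measure the spread between RNA pools. Those with the block measure the spread left after pool number and genotype.

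Equal pool numbers were checked for pairing. Each array's deviation from its genotype mean was correlated across genes with that of its namesake, with r of 0.603 (pool 1), 0.806 (pool 2) and 0.605 (pool 3), above the 0.1 required, but control 1 with AFO 3 (0.447) and control 3 with AFO 1 (0.357) also did, and nothing in the labels tells what equal numbers have in common. The members and lists were chosen with earlier results of these data known. Named were all members, from each list the 2 genes with the smallest p and the 2 with the widest range, and the 3 profiles most like and most opposite to Arntl and Dbp. Alternatives changed the filter, scaling, probe set choice, limma options, the block and the arrays used. The fits were tested on simulated data first.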

Additional observations from a re-analysis of the deposited data

How the results depend on the processing

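In the other fits no member passed, except Per2 with both pool 2 arrays left out and a block. All genes called numbered 0 without and 2 with the replicate block, 74 without both pool 2 arrays, and 232, of which 1 was a member, without them and with the block. Leaving out single arrays gave 0 to 14 genes, the 14 without AFO pool 2. The members' genotype differences have no stable sign. Leaving out single arrays moved them from -0.50 to 0.31 (Arntl), -0.61 to 0.19 (Clock), -0.31 to 0.45 (Per1), -0.060 to 0.60 (Per2), -0.24 to 0.30 (Per3), -0.21 to 0.065 (Cry1), -0.30 to 0.30 (Nr1d1), -0.42 to 0.28 (Nr1d2) and -0.93 to 1.10 (Dbp). The sign also turned without both pool 1 arrays for Per1 (-0.073), Nr1d2 (-0.15) and Dbp (-0.00019), and without both pool 3 arrays for Arntl (0.28), Clock (0.035), Per1 (-0.19), Per2 (-0.022), Per3 (-0.19) and Nr1d1 (-0.030). Leaving out pools 1 or 3, and a filter at 4.88 (the 40th percentile of all probe sets), were chosen after seeing the data. Where probe sets of a gene were averaged, Per3 stood at -0.14 and Nr1d2 at -0.027. Array weights moved Dbp to 1.41 and Per2 to 0.82, uncalled. Causes were not tested beyond fewer arrays in the fits that leave some out. The 6 limb differences kept their signs with Arntl alone, with averaged probe sets and with median centring, which cannot move them by construction. Without Dbp, an alternative chosen after seeing the data, control pool 3 turned to 0.042.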

Other observations

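Lists of signals that reach peripheral clocks were also read (3 lists, 24 genes), and 0 of their 22 tested genes passed the limma test. Of 7 glucocorticoid-responsive genes 6 were lower in AFO fat, with a median of -0.15. Zbtb16 differed by -0.15 (SE 0.62), Klf9 by -0.17 (SE 0.23) and Errfi1 by -0.60 (SE 0.57), and Errfi1 read 8.41 in AFO pool 2 against 9.73 to 10.76 on the other arrays. Fkbp5, a chaperone induced by glucocorticoids and chosen after its values were seen, read 10.27, 10.36 and 10.99 in control and 10.31, 10.23 and 11.11 in AFO fat, high in pool 3 alone like Nr1d1. Of 7 temperature-responsive genes 4 were higher in AFO fat, with Hsph1 at 0.39 (SE 0.21), Hspa1a at 0.46 (SE 0.38), Hspa1b at -0.028 (SE 0.46) and Hsp90aa1 at 0.22 (SE 0.19). Of 8 immediate early genes 4 were higher, with Nr4a1 at 0.28 (SE 0.29), Atf3 at 0.19 (SE 0.15), Jun at -0.026 (SE 0.33) and Fos at 0.095 (SE 0.64). Fos read 9.72, 10.58 and 8.64 in control and 9.38, 10.88 and 8.95 in AFO fat, in the same order of pools in each genotype. That order, pool 2 above pool 1 above pool 3, is not the order of any of the 10 clock genes.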
